A study of Mus musculus with 9 samples.

Results

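Dpp4+ Cd34+ fibroblasts were examined in the synovial joint of the mouse knee, connective tissue cells that carry the surface genes Dpp4 and Cd34 and are counted among the universal fibroblasts. The members were chosen on measured values, as cells with at least 1 UMI (a counted RNA molecule) of Dpp4 and of Cd34, at least 1 UMI of any of Sema3c, Anxa3, Wnt2 and Ackr3, and none of the leukocyte gene Ptprc, the endothelial gene Pecam1 and the lining gene Clic5. Of 5161 barcodes in 9 single-cell libraries, 4788 passed the cell filter (500 genes and 1000 UMIs or more, and mitochondrial RNA no higher than 10%), and 497 of these were members. They came from steady-state knees in 239 cases and from injured knees in 258, and they were compared where needed with the 2261 Cd34+ Dpp4- cells of the same libraries, which carried Cd34, no Dpp4 and none of the 3 excluding genes.

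All mice were Gdf5-Cre;Tom;Pdgfrα-H2BGFP, 11 to 12 weeks old, so that every library, control or injured, carried the same 3 alleles. The labels give that age range for every library, but the figure legends give the lower age for steady-state and the upper for injured mice, so age and injury cannot be told apart. Cre was driven by Gdf5, a gene of the embryonic joint interzone, and left a heritable tdTomato (Tom) mark, while the Pdgfrα promoter drove a nuclear GFP in fibroblasts and progenitors. Sorting gave Tom+ cells, which belong to the Gdf5 lineage, and Tom-GFP+ cells, which express Pdgfrα without the Gdf5-lineage mark. Steady-state knees gave 2 Tom+ libraries and 1 Tom-GFP+ library, and knees taken 6 days after a surgical injury to the articular cartilage gave 4 Tom+ and 2 Tom-GFP+ libraries. The Tom-GFP+ cells came from mice that also gave Tom+ cells, but the labels do not say which, and the opening of the joint and the cartilage wound cannot be told apart because no sham-operated library was analysed here. Below, values are given for the 3 steady libraries in the order Tom+ 1, Tom+ 2 and Tom-GFP+ 1, and for the 6 injured libraries in the order Tom+ 1 to 4 and Tom-GFP+ 1 to 2. Gene levels are CPM, the UMIs of a gene over the summed members of a library, scaled to a common total. Of the members there were 55, 64 and 120 in the steady libraries and 39, 30, 28, 49, 77 and 35 in the injured ones, with 380355 to 1222601 UMIs per sum.

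Universal fibroblasts lie around vessels and in the interstitium of most organs, and are known for Pi16, Dpp4, Cd34 and Ly6 genes, for microfibril genes such as Mfap5 and Fbn1, and as a proposed reserve from which specialised fibroblasts form. In the joint they belong to the sublining, the loose tissue under the synovial lining, whose own fibroblasts make lubricin (Prg4) and hyaluronan. After wounding, fibroblasts of many organs switch on matrix genes such as Cthrc1, Postn, Lrrc15 and the fibrillar collagens.

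The members carried the genes expected of the label beyond those that selected them. Pi16, a secreted peptidase inhibitor and the marker not used by the rule, lay at 4236, 2505 and 2703 CPM in the steady and 341, 1669, 1512, 1637, 1063 and 1520.0 CPM in the injured libraries. Among single members 66.6% held a Pi16 UMI, against 27.3% of Cd34+ Dpp4- cells, 3.54% of Clic5+ Prg4+ lining cells and 23.9% of the 71 Ptprc+ cells, at median depths of 11106, 11418, 17041.5 and 8432 UMIs. With every cell thinned to 5000 UMIs these shares were 60.0%, 20.4%, 1.52% and 14.5%, the last over 55 cells. Thy1, the general sublining marker, was found in 75.7% of thinned members and 1.52% of thinned lining cells. Cd55, a complement-protecting receptor linked to the same cells, was no such divider, as it reached 55.0% of thinned members and 57.8% of thinned lining cells.

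The genes of the rule describe how strictly it cut and carry no test. Dpp4, a surface peptidase, lay at 185, 168 and 204 CPM in the steady members and at 73.1, 119, 108, 118, 119 and 149 CPM in the injured ones. Cd34, a sialomucin of progenitors and vessels, stood at 1728, 1829.8 and 1702 CPM in steady and 674, 649.9, 928, 1085, 804 and 1062 CPM in injured libraries. Anxa3, an annexin, gave 815, 632 and 720.3 CPM against 244, 271, 360.2, 330.0, 382 and 245 CPM. Sema3c, a secreted semaphorin, gave 581, 406 and 447 CPM against 255, 286, 260.3, 349.6, 276 and 384 CPM. These 4 were lower in every injured library than in every steady one, where cells were also shallower (median 9207 to 9358.5 UMIs per member in steady against 11966 to 17884 in injured libraries), so a single UMI was a lower bar after injury. The ligand Wnt2 (72.4, 102 and 105 CPM against 32.96, 27.8, 42.1, 26.1, 115 and 70.4 CPM) and the scavenger receptor Ackr3 (587, 424 and 416 CPM against 659, 468, 686, 257, 567 and 593 CPM) overlapped between the states. Of the 497 members, 292 had a single Dpp4 UMI and 205 had more, and 139 carried all 4 of Sema3c, Anxa3, Wnt2 and Ackr3 while 39 carried just 1. Inside the threshold, members with a single Dpp4 UMI held 1545 CPM of Pi16 and those with 2 or more held 2316 CPM. These values were close in steady members (2976 and 3032 CPM) and apart in injured ones (838 and 1763 CPM). Just outside the threshold, the 1957 cells that lacked only Dpp4 held 270.1 CPM. The 10 cells with Dpp4 and none of the 4 genes held 141 CPM, and the 11 cells without Cd34 held 107 CPM. The 12 cells set aside for Ptprc, Pecam1 or Clic5 held 938 CPM, which pooled 5699 CPM in 3 steady cells and 160 CPM in 9 injured cells. In the 1957 cells the level was 821 CPM in steady state and 165 CPM after injury. Scrublet scores, which point to barcodes that may hold 2 cells, placed 23 members among the 239 cells with the highest 5%, and 3 members shared their barcode with another library, out of 12 shared barcodes in all.

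Markers of leukocytes, and of endothelium apart from Plvap, were low in the members. Those of mural, tendon, cartilage, lining and other sublining cells were higher in some or all libraries. They are given because they bear on the comparisons that follow. The 12 leukocyte genes summed to 15.2, 4.80 and 7.17 CPM in the steady and to 5.73, 12.6, 47.3, 44.1, 11.5 and 34.1 CPM in the injured libraries, with Lyz2 the most abundant and Cd3e at 0 throughout. Of 9 endothelial genes 3 were seen, Plvap making up nearly all of their sum, while Cdh5, Vwf, Emcn, Tie1 and Cldn5 were at 0 in all 9 libraries. That sum was 38.1, 41.6 and 29.6 CPM in the steady and 80.3, 83.5, 73.6, 94.8, 53.2 and 38.4 CPM in the injured libraries. Mural markers summed to 13.3, 7.997 and 41.2 CPM in steady and to 104.6, 119, 360.2, 155, 135 and 29.8 CPM in injured libraries, with 7 of 10 seen, Tagln the most abundant, and Myh11, Mcam and Tinagl1 at 0. Tenocyte markers were uneven (3.81, 972 and 27.8 CPM in steady and 612, 657, 94.6, 163, 42.5 and 319.8 CPM in injured libraries), led by Thbs4, a tendon matrix gene, at a mean of 157 CPM. All 10 chondrocyte markers were seen, and they summed to 465, 1147 and 281 CPM in steady and to 434, 652, 862, 436, 87.5 and 298 CPM in injured libraries, led by Comp, a matrix gene of cartilage and tendon, at a mean of 473 CPM. Among lining markers Prg4 had a UMI in 61.2% of members and averaged 455 CPM in them against 1273 CPM in the Cd34+ Dpp4- cells. Crtac1 was at 0 in the members, and Clic5 was at 0 in both classes because the selection excluded it. The 15 markers of other sublining fibroblasts, led by Cxcl12, summed to 1920, 2126 and 3030 CPM in the steady members. In the injured members they summed to 1724, 1527, 1848, 1379, 2103 and 1379 CPM. The Cd34+ Dpp4- cells had a higher sum of them in every library. Whether stray RNA of these cells had a part in any result was not tested.

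Next to the Cd34+ Dpp4- cells of their own library, the members stood out by a set of further genes, which are described without a test because the same cells were gated on correlated genes. Of 1432 genes with at least 100 CPM in the members, 142 were higher in all 9 libraries. Pi16 led with a mean of 1909.5 ± 1119 CPM (SD, n = 9 libraries) against 376 ± 281 CPM, a ratio of 5.08. It was followed by Car8, related to carbonic anhydrases (4.19 times), the interferon-inducible Ifi27l2a (4.04 times), Cd55 (3.57 times) and the calcium-binding Efhd1 (3.53 times). Matrix genes among the leading 20 were Efemp1 (3.11 times), Emilin2 (2.63 times), Fbn1 (2.42 times), Nov (2.40 times) and the collagen-processing Pcolce2 (2.12 times), and receptors were Procr, the protein C receptor (2.89 times), Adgrd1 (2.56 times), Scara5 (2.27 times), Cd248 (2.12 times) and Axl (2.09 times). Lower in the members in every library were the chemokines Cxcl14 (ratio 0.144) and Cxcl12 (0.405), Sparcl1 (0.231), Tmem176b (0.264), tenascin C (Tnc, 0.314), Prg4 (0.358), Timp1 (0.438) and the cartilage and tendon gene Comp (0.477).

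How common such cells were was measured as a share of sorted cells, which is not a count of cells per knee. Members made up 16.6% (95% exact binomial interval 12.8 to 21.1%), 11.8% (9.18 to 14.8%) and 29.3% (24.9 to 33.9%) of kept cells in the steady libraries. These intervals, like the limits for genes without a UMI, cover counting error only. In the injured Tom+ libraries the share was 5.14% (3.68 to 6.96%), 3.63% (2.46 to 5.14%), 5.41% (3.62 to 7.72%) and 7.90% (5.90 to 10.3%). The injured Tom-GFP+ libraries gave 15.3% (12.3 to 18.8%) and 12.6% (8.96 to 17.1%). Every injured library lay under every steady library of its own lineage, and the Tom-GFP+ libraries lay above the Tom+ libraries of the same state.

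**Figure D1:**
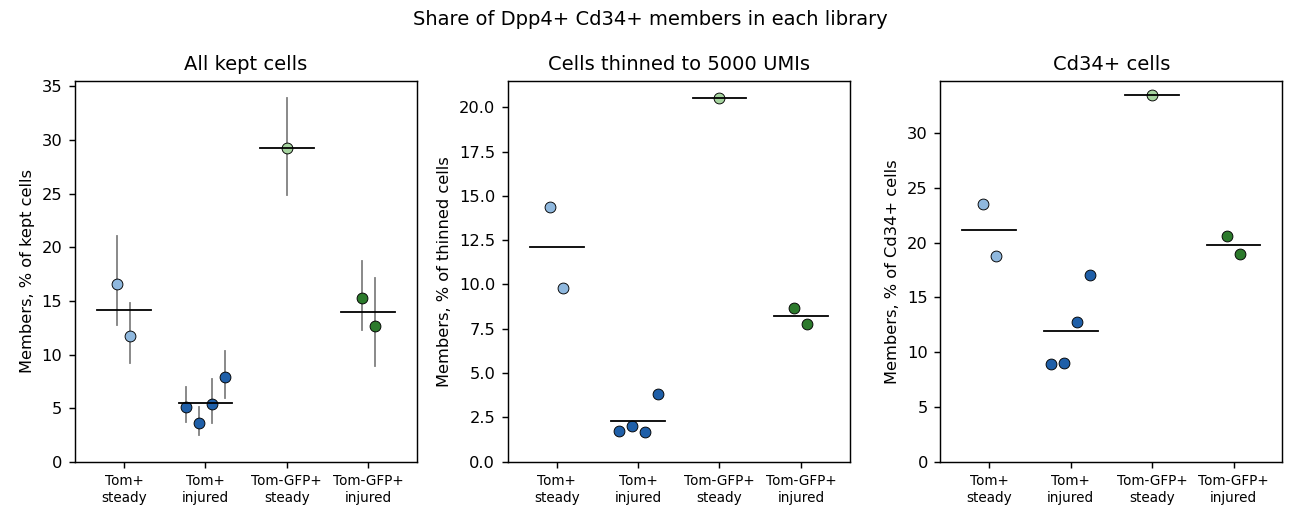
Members as a percentage of all kept cells (left), of cells thinned to 5000 UMIs (middle) and of Cd34+ cells (right), 1 point per library, with the mean of each group as a line and, on the left, the 95% exact binomial interval as a grey bar. In each panel the injured points lie below the steady points of the same lineage.

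Averaged over both lineages, the share after injury was 0.425 times that in steady state (2-sided exact permutation test within lineage, p = 0.0222, the smallest p that 45 arrangements can give). Within Tom+ alone it was 0.380 times (exact permutation p = 0.0667, again the smallest possible). The Tom-GFP+ share was 2.34 times the Tom+ share (exact permutation test within state, p = 0.0222). Because a deeper cell shows Dpp4 more readily, the shares were repeated in cells thinned to 5000 UMIs, where they were 14.4%, 9.82% and 20.5% in the steady and 1.75%, 2.02%, 1.66%, 3.81%, 8.65% and 7.78% in the injured libraries, a ratio of 0.270 (exact permutation p = 0.0222). Among Cd34+ cells only, the injured share was 0.567 times the steady one (exact permutation p = 0.0222) and the Tom-GFP+ share 1.66 times the Tom+ one (exact permutation p = 0.0444). Clic5+ Prg4+ lining cells were 55 of 1285 kept cells in the steady and 481 of 3503 in the injured libraries. Cells with less Dpp4, fewer cells of this kind and more cells of other kinds cannot be told apart in a share of members. Such a share also depends on what the sort and the tissue digest released. Pi16, which the rule did not use but which marks the same cells and was itself lower per member after injury, does not separate these cases either. The share of all thinned cells with a Pi16 UMI was 17.2 percentage points lower after injury and 21.8 points higher in Tom-GFP+ (exact permutation p = 0.0222 for each), while within members the same differences were 8.61 points lower (p = 0.178) and 16.5 points higher (p = 0.0667, both exact permutation).

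After injury the members held more RNA of wound matrix genes. Cthrc1, Lrrc15, Tnc, Timp1, Postn and Col1a1 rose, with no overlap between the states in either lineage, along with Acta2, Tagln, Hbegf and Ptn, while Myoc, Penk, Cxcl13 and part of the universal fibroblast genes fell. In summed members 1063 of 7319 genes tested changed (edgeR's quasi-likelihood test with lineage as a covariate, false discovery rate 0.05), which is 14.5% of genes and the background for the counts below, with 440 higher (6.01%) and 623 lower (8.51%). Libraries did not overlap between the states within either lineage for 1724 genes (23.6%). In a sum of this kind, a change in every cell and a change in which cells met the rule cannot be told apart.

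Cthrc1 (chr15:39076932-39087121, GRCm38), a secreted collagen triple helix protein of activated fibroblasts, rose from 19.05, 25.6 and 29.6 CPM in the steady libraries to 4536, 2511, 1662, 1652, 2765 and 1117 CPM in the injured ones. The steady values sat close together and the injured ones lay far above them, so the spread within a state was small beside the change. The log2 fold change was 6.46 ± 0.51 SE (edgeR's quasi-likelihood test, Benjamini-Hochberg adjusted p = 2.12e-05). Lrrc15 (chr16:30269302-30283256), a membrane protein of activated fibroblasts, went from 1.90, 1.60 and 1.79 to 195, 104, 103, 108, 107 and 102 CPM, a log2 fold change of 5.86 ± 0.40 SE. The first injured Tom+ library was clearly higher than the other 5 in this gene. C1qtnf3, a secreted cartilage-associated protein, had 9.52, 3.20 and 3.58 CPM in steady state and 589, 435, 249.8, 124, 123 and 245 CPM after injury (5.66 ± 0.61 SE). Timp1, an inhibitor of matrix proteases, rose from 62.9, 110.4 and 50.2 to 2275, 690.4, 652, 570.2, 1221 and 814 CPM (3.77 ± 0.49 SE). In each of these genes no injured library came near a steady one.

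Barx2 and Tnn had no UMI in any steady library. Barx2, a homeobox gene, stood at 77.4, 27.8, 5.26, 21.2, 119 and 57.6 CPM in the injured libraries, at least 50.4-fold above the limit of 3 UMIs over the pooled steady members (at least 31.6-fold without the first injured Tom-GFP+ library). Tnn (tenascin N, a matrix protein of tendon and bone surfaces) stood at 155, 83.5, 21.03, 35.9, 26.99 and 31.98 CPM, at least 43.8-fold above the same limit (27.2-fold without the first injured Tom+ library). The other genes named for a rise were Tnc (1.90, 4.80 and 0 against 191, 220.0, 47.3, 49.01, 31.1 and 27.7 CPM), the actin-linked Marcksl1 (log2 fold change 5.28), the imprinted non-coding RNA H19 (5.02), the growth factors Hbegf (4.83) and Ptn (4.42) and the smooth muscle genes Acta2 (4.46) and Tagln (5.10). Several of these values rest on few cells. Of the Hbegf UMIs 102 of 124 in the first and 18 of 22 in the second injured Tom-GFP+ library came from 1 cell each. So did 57 of 77 H19 UMIs in the first injured Tom+ library and 17 of 22 Acta2 UMIs in the third. For Tagln 105 of its 115 UMIs in the third injured Tom+ library came from 1 cell, and without the second steady Tom+ library its adjusted p was 0.0549 (edgeR's quasi-likelihood test). The other 23 of the 24 genes named for injury remained called, in the same direction, when each library was left out in turn. Among the further 98 called genes of the gene lists described below, leaving aside those 24, that held for 48.

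**Figure D2:**
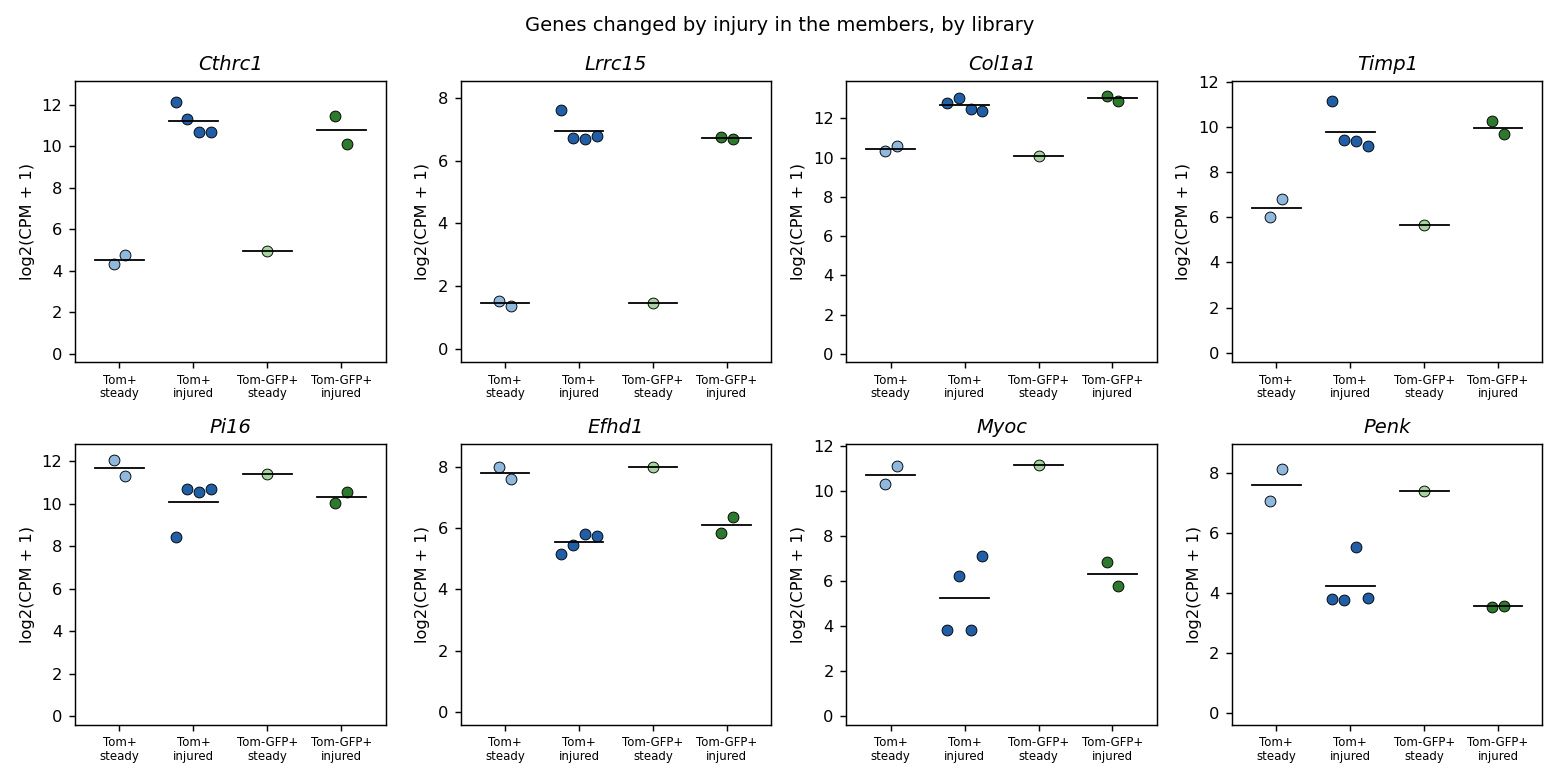
Level of 8 genes in the summed members, as log2(CPM + 1), 1 point per library with the mean of each group as a line. Cthrc1, Lrrc15, Col1a1 and Timp1 lie higher in the injured libraries of both lineages, and Pi16, Efhd1, Myoc and Penk lie lower.

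Of 17 fibrillar and network collagens 11 rose and none fell, with a median log2 fold change of 1.32 against 0.0021 over all genes tested. Col1a1, the main chain of type I collagen, went from 1284, 1523 and 1078 to 7054, 8492, 5587, 5303, 9048 and 7656 CPM (log2 fold change 2.41 ± 0.22 SE, edgeR's quasi-likelihood test, Benjamini-Hochberg adjusted p = 4.84e-05). Col3a1 went from 3996, 3215 and 3992 to 12628, 13162, 14003, 13315, 15746 and 13089.8 CPM (1.82 ± 0.16 SE). Col1a2, Col5a1, Col5a2, Col5a3, Col6a2, Col6a3, Col8a1, Col12a1 and Col18a1 made up the rest, at 0.84 to 2.98 on the log2 scale. Among 16 tested genes that process collagen 4 rose (Plod2 and P3h1, which hydroxylate lysine and proline, P4ha3 and Fkbp10) and Pcolce2, an enhancer of procollagen cleavage, fell from 1648, 2052 and 1335 to 294, 377, 434, 511, 263 and 509.5 CPM. The count of higher collagens was 10 or 11 without the steady Tom-GFP+ library, with the matrix format (described below) as a block or in Tom+ libraries only. For Tom-GFP+ (1 steady and 2 injured libraries) injury was read as a contrast within a fit of 4 groups over all 9 libraries. Its spread thus comes mostly from the other groups, and no calls are given for it. In this Tom-GFP+ contrast the median log2 fold change of the collagens was 0.89. Without the steady Tom-GFP+ library, with the format block or in Tom+ libraries only, the 4 higher processing genes became 1. Plod2 alone of the 4 remained called when each library was left out in turn.

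Of 19 wound matrix genes 14 rose and none fell (median log2 fold change 3.10), among them Postn (2.29), Lum (1.62), Sparc (1.21), Lox, which cross-links collagen and elastin (3.10), Adam12 (4.28), Bgn (1.48) and the heparin-binding Mdk (4.35). Cthrc1, Postn, Timp1, Bgn, Lum, Sparc and Lox were put on that list by the study from these same samples, and Lrrc15, Adam12, Tnc and Mdk by an earlier clustering of them, so that count is not independent evidence. It was 13 in Tom+ libraries only, and in the Tom-GFP+ contrast the median log2 fold change was 2.24. Elastic fibre genes split, with 6 of 19 higher (Lox, Mfap2, Mfap4, Efemp2, Emilin1 and Fbn2) and 2 lower (Fbln1 and Ltbp4, which binds latent TGF-beta). The 6 higher became 3 without the steady Tom-GFP+ library and 1 of 20 with the matrix format as a block. In the Tom-GFP+ contrast the median log2 fold change of the list was 0.18, against 0.33 in the main fit. Fibronectin (Fn1), already high at 3404, 3312 and 2874 CPM in steady members, had a log2 fold change of 0.38 ± 0.17 SE and was not called. Proteases and their inhibitors also went both ways: Mmp14 (116, 110.4 and 182 against 292, 377, 421, 479, 436 and 484 CPM), Mmp2, Mmp19 and Timp1 rose and Timp3 (474, 768 and 505 against 96.03, 119, 142, 75.2, 95.7 and 209 CPM) and the aggrecanase Adamts5 fell, of 14 tested.

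Of the signalling lists, 5 of 10 Wnt and 6 of 8 insulin-like growth factor genes were called, beside 14.5% of all genes. In the TGF-beta and BMP list 3 of 17 were called, 1 higher (none without the steady Tom-GFP+ library) and 2 lower, and among chemokines and cytokines 2 of 17, which is near that background. Among the 10 Wnt ligands and antagonists tested, Wnt16 (from 1.90, 0 and 0 to 15.8, 30.3, 10.5, 11.4, 41.7 and 53.3 CPM), the enhancer Rspo2 (3.06) and Dkk3 (1.72) rose and Wnt10b (-2.68) and Wnt11 (-1.67) fell. Bmp2 went from 22.9, 83.2 and 34.04 to 8.60, 7.59, 13.1, 9.80, 6.54 and 2.13 CPM and Bmp4 from 55.2, 109 and 61.8 to 22.9, 17.7, 23.7, 16.3, 20.4 and 27.7 CPM, both lower. Igf1 (1.24), Igfbp4 (1.44) and Igfbp7 (0.97) rose while Igfbp5 (-0.83), Igfbp6 (-0.99) and the receptor Igf1r (-0.88) fell. These counts became 2 higher and 1 lower without the steady Tom-GFP+ library and 1 each way with the matrix format as a block. Pdgfra, whose promoter drives the GFP of the sort, fell from 284, 446 and 398 to 161, 217, 166, 257, 173 and 205 CPM (-0.99 ± 0.21 SE). Its adjusted p was 0.0708 without the steady Tom-GFP+ library and 0.0612 without the second steady Tom+ library (edgeR's quasi-likelihood test). Of 17 chemokines and cytokines tested, the growth factor Csf1 and the B-cell attractant Cxcl13 fell and none rose. Il1rl1, the receptor of interleukin 33, had no UMI in steady members and 102, 40.5, 0, 4.90, 313 and 40.5 CPM after injury, at least 98.4-fold above the limit of 3 pooled UMIs. The bound was 32.2-fold without the first injured Tom-GFP+ library. The injured libraries spread widely, the third Tom+ one had none, and without the steady Tom-GFP+ library its adjusted p was 0.182 (edgeR's quasi-likelihood test).

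Runx1, a transcription factor of blood and skeletal progenitors, rose from 9.52, 3.20 and 3.58 to 112, 96.1, 76.2, 55.5, 49.9 and 70.4 CPM (log2 fold change 3.78 ± 0.37 SE). Creb5 (-1.06), Foxo1 (-1.52) and Klf4 (-0.99) fell, of 14 osteochondral and tendon factors tested. Of the 4 called, Runx1 and Creb5 remained called when each library was left out in turn. With the matrix format as a block 2 of 15 were higher and 1 lower, and in Tom+ libraries only 1 of 13 was higher and 1 lower. The list holds Sox9, Runx2, Scx, Sox5, Foxo1 and Creb5 as chosen by the study from these samples. The study associated Sox5, Foxo1 and Creb5 with the lining fibroblasts, so the name of the list does not cover them. Sox9 lay at 7.62, 12.8 and 17.9 CPM in steady and 20.1, 63.2, 15.8, 9.80, 7.36 and 8.53 CPM in injured members and was not called, and Runx2 and Scx were too low to be tested. In cells thinned to 5000 UMIs, Sox9 was seen in 14 of 227 steady and 10 of 251 injured members, Runx2 in 1 and 6, and Scx in 1 and 9, too few for their joint presence in single cells to be read. The adipogenic factors Ebf1 and Ebf2 (2 of 8 tested) and the limb gene Tbx5 (1 of 10) fell (log2 fold changes -1.06, -1.49 and -2.13). With the matrix format as a block 4 of 9 adipogenic genes were lower and none of 12 limb genes was called.

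Of 15 glycolysis genes 6 rose (1 without the steady Tom-GFP+ library), among them Ldha (from 379, 409 and 316 to 1122, 706, 659.9, 671, 1247 and 507 CPM) and the lactate exporter Slc16a3 (from 0, 1.60 and 0 to 67.4, 35.4, 5.26, 34.3, 76.1 and 21.3 CPM). Of 10 genes of G2 and M phase tested 4 rose (Ccnb2, Cdk1, Hmgb2 and Birc5), with 16 such genes summing to 34.3, 20.8 and 21.5 CPM in steady and to 377, 63.2, 360.2, 34.3, 605 and 49.03 CPM in injured libraries. The sums after injury thus spread from the steady level to far above it, and none of those 4 calls held when the steady Tom-GFP+ library was left out. Mki67 or Top2a was seen in 1 of 227 steady and 8 of 251 injured thinned members, a difference of 2.40 percentage points on average over lineages (exact permutation p = 0.533), and no S phase gene of 7 tested was called. Of 8 genes of hyaluronan handling 2 rose, Tnfaip6 (109, 173 and 292 against 552, 642, 909.7, 472, 973 and 488 CPM) and the hyaluronan receptor Cd44. Of 17 secretory pathway genes 3 rose (Kdelr2, Kdelr3 and Sec61b) and Sdf2l1 fell, none of which was called without the steady Tom-GFP+ library or in Tom+ libraries only. The heat shock genes Hspa1a and Hspa1b fell (2 of 12), as did Klf4 alone among 18 immediate early genes (5 of 19 were lower with the matrix format as a block). Of these 3 Hspa1b alone remained called when each library was left out in turn. With the matrix format as a block none of 12 heat shock genes was called, and in Tom+ libraries only 1 was higher and 1 lower. Of 16 interferon-stimulated genes H2-D1, Ifi27l2a and Irf1 were lower, and of 13 complement genes Cd59a was higher and Serping1 lower. None of these 5 calls held without the steady Tom-GFP+ library, and the interferon calls were also absent with the matrix format as a block and in Tom+ libraries only. With that block 3 of 13 complement genes were lower and none higher, with a median log2 fold change of -1.02 against -0.10 in the main fit. Among markers of other cells that could be tested, Hbegf (1 of 3 lining markers), Kera (1 of 4 tenocyte markers), Acan (1 of 3 chondrocyte markers), Plvap and the mural genes Acta2 and Tagln were higher. The calls of Kera and Acan were lost without the steady Tom-GFP+ library. With the matrix format as a block the call of Plvap was lost and 1 of 3 mural genes was higher. Of 13 markers of other sublining fibroblasts Ociad2 was higher and Smoc2 and Slurp1 were lower, with a median log2 fold change of -0.42 (-1.84 with the matrix format as a block), and without the steady Tom-GFP+ library 1 of 11 was lower and none higher. Acan, the cartilage proteoglycan, was at 0 in steady members and at 87.4, 109, 0, 26.1, 1.64 and 38.4 CPM in injured ones, unevenly between libraries. No osteoblast, Schwann or muscle, mesothelial or erythroid marker was high enough to be tested.

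Among the genes that fell, Myoc (chr1:162639155-162649693), which encodes the secreted glycoprotein myocilin, had the largest decrease under the naming rule. It stood at 1267, 2268 and 2276 CPM in steady and 12.9, 73.3, 13.1, 137, 115 and 53.3 CPM in injured members, a log2 fold change of -4.86 ± 0.53 SE (edgeR's quasi-likelihood test, Benjamini-Hochberg adjusted p = 8.92e-05). Penk, the proenkephalin gene, went from 131, 282 and 166 to 12.9, 12.6, 44.7, 13.1, 10.6 and 10.7 CPM (-3.63 ± 0.35 SE). In both genes the states lay well apart. Cxcl13, which was uneven between the steady libraries, went from 11.4, 174 and 698 CPM, a wide spread, to 0, 0, 0, 3.27, 18.8 and 122 CPM (-4.36 ± 0.77 SE). Of its UMIs 108 of 109 in the second steady Tom+ library and 22 of 23 in the first injured Tom-GFP+ library came from 1 cell each, while in the steady Tom-GFP+ library 48 of 120 members held it. Krtdap and Slurp1, small secreted proteins better known from epithelium, also fell (-4.15 and -3.52). Here 10 of 11 Krtdap UMIs in the first steady Tom+ library and 49 of 59 Slurp1 UMIs in the first injured Tom+ library came from 1 cell each. The remaining 7 of the 12 named genes that fell, Ftl1-ps1, H3f3a-ps2, Tpt1-ps3, Oaz1-ps, Psme2b, Ly6c2 and H2-Q2, are pseudogenes or close copies of other genes whose reads the counting could split between copies, and their values are uncertain.

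Annotated pseudogenes were 193 of the 623 genes that fell and 2 of the 440 that rose, and they took 3.41%, 2.13% and 3.26% of the members' UMIs in the steady libraries against 0.984%, 0.543%, 0.516%, 0.550%, 0.602% and 0.530% in the injured ones. They were 13050 of 54495 annotated gene IDs before the filter on low counts, and their share among the genes tested is not given here. With pseudogenes left out, 387 of 7136 genes were higher and 447 lower. The 3 steady libraries and the first injured Tom+ library were deposited in an older matrix format and the other 5 in a newer one written by Cell Ranger 3.0.2, so that format and state are nearly confounded. With the format as a block, 454 genes were called, 339 of the 1063 genes remained called in the same direction, 1059 kept their sign, and 19 of the 24 named genes remained called. The first injured Tom+ library, in the older format, had Cthrc1, Lrrc15 and Col1a1 at 4536, 195 and 7054 CPM.

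Of 24 universal fibroblast genes tested 8 were lower and none higher, with a median log2 fold change of -0.67 against 0.0021 over all genes tested. In Tom+ libraries only 8 were again lower, and in the Tom-GFP+ contrast the median log2 fold change was -0.46. Without the steady Tom-GFP+ library 6 were lower and 1 was higher. The list includes Pi16 and Cd55, chosen by the study on these samples, so it is not independent evidence of its direction. Efhd1 went from 255, 192 and 255 to 34.4, 42.99, 55.2, 52.3, 55.6 and 81.01 CPM (log2 fold change -2.20 ± 0.20 SE, edgeR's quasi-likelihood test, Benjamini-Hochberg adjusted p = 4.84e-05). Procr, Limch1, Opcml, Igfbp6, Dact2 and Stmn4 also fell, with log2 fold changes of -2.15 (Opcml) to -0.99 (Igfbp6). Pi16 fell from 4236, 2505 and 2703 to 341, 1669, 1512, 1637, 1063 and 1520.0 CPM (-1.32 ± 0.37 SE, edgeR's quasi-likelihood test, Benjamini-Hochberg adjusted p = 0.0292), with the first injured Tom+ library far under the other 5. That call was lost without either steady Tom+ library (adjusted p = 0.162 and 0.056), without the steady Tom-GFP+ library (0.108), without the first injured Tom-GFP+ library (0.0643) and among members with 2 or more Dpp4 UMIs (0.528, all by edgeR's quasi-likelihood test), where the log2 fold change was -0.80. In the pooled members with a single Dpp4 UMI, Pi16 was 2976 CPM in steady state and 838 CPM after injury, and in those with 2 or more it was 3032 and 1763 CPM. Other defining genes were not called, including Mfap5 (2478, 1847 and 2364 against 3029.9, 1649, 3665, 2970.2, 2365 and 3364 CPM), Fbn1 (0.37 ± 0.22 SE), Dpt (-0.13 ± 0.21 SE), Clec3b (-0.25 ± 0.17 SE), Ly6a (-0.16 ± 0.16 SE), Ly6c1 (-0.46 ± 0.18 SE), Cd55 (-0.89 ± 0.31 SE) and Cd248 (-0.49 ± 0.21 SE, all log2 fold changes). Car8, which marked the members against their neighbours, fell from 227, 227 and 175 to 28.7, 50.6, 52.6, 60.4, 34.4 and 49.03 CPM.

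In single cells the wound gene and the universal gene were often seen in the same injured member, where each was common by itself. Whether they met more often than their separate shares would give was not tested. In members thinned to 5000 UMIs, Pi16 was seen in 148 of 227 steady and 139 of 251 injured cells, and Cthrc1 in 21 of 227 and 215 of 251. Both genes were seen in 8 steady and 113 injured members, Cthrc1 without Pi16 in 13 and 102, and Pi16 without Cthrc1 in 140 and 26. Among injured libraries the share with both differed widely, from 7 of 39 members in the first Tom+ library to 28 of 49 in the fourth and 42 of 73 in the first Tom-GFP+ library. Cthrc1 was no mark of the members, as 86.5% of the thinned injured Cd34+ Dpp4- cells held it too, against 26.6% of thinned injured lining cells and 5.66% of thinned injured Ptprc+ cells. Pi16 also varied strongly between members of 1 library: in the first steady Tom+ library the median member held 474 CPM, the upper quartile 8366 CPM and the highest 30834 CPM, and 7 of the 9 libraries had a median above 0.

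**Figure D3:**
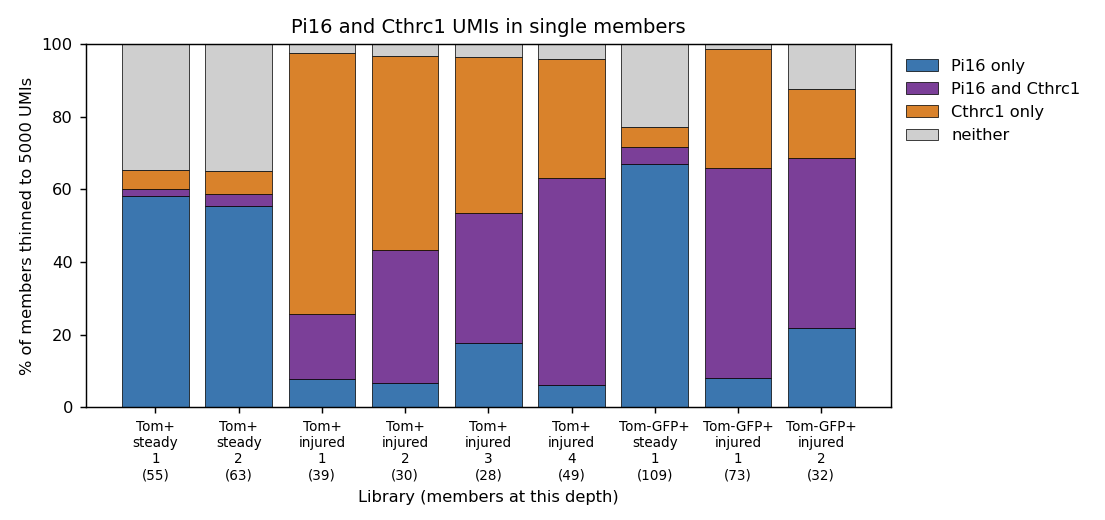
Share of members, thinned to 5000 UMIs, with a UMI of Pi16 only, of both genes, of Cthrc1 only or of neither, as stacked bars by library with the number of members in brackets. Pi16 alone is the largest part in the 3 steady libraries (32 of 55, 35 of 63 and 73 of 109 members), and cells with Cthrc1 in the 6 injured ones.

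Between lineages the members differed in few genes. Tom-GFP+ members were higher in interferon-stimulated genes (Isg15, Ifit1, Ifit3, Ifi27l2a, Bst2, Oasl2 and Irf7) and in Plac8, Dmkn, Vegfd and Smoc2, while Tom+ members were higher in Barx1 and Dkk3. Of 7319 genes tested 51 were called (0.697%), 40 higher in Tom-GFP+ (0.547%) and 11 lower (0.15%), and 383 genes (5.23%) had no overlap between lineages within either state. The sort held in the members: tdTom was seen in 87.3% to 100% of members of each Tom+ library and in 5.71% to 9.09% of each Tom-GFP+ library, and its log2 difference of -5.80 reflects the gate. Only 3 Tom-GFP+ libraries were available, 1 of them in steady state, and 3 of the 22 genes given by the naming rule (tdTom, Isg15 and Barx1) remained called when each library was left out in turn.

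Isg15 (chr4:156199424-156200818), a ubiquitin-like protein induced by interferon, lay at 5.71, 9.60, 37.3, 15.2, 15.8 and 31.04 CPM in the 6 Tom+ libraries, steady first, and at 227, 319 and 91.7 CPM in the 3 Tom-GFP+ libraries. Its log2 difference was 3.50 ± 0.42 SE (edgeR's quasi-likelihood test, Benjamini-Hochberg adjusted p = 0.00229). All 3 Tom-GFP+ values lay above all 6 Tom+ values, but the 3 themselves spread widely. The gene was carried by some members and not others: 39 of 120, 44 of 77 and 9 of 35 Tom-GFP+ members had a UMI, against 3 to 7 members in each Tom+ library, and in the first injured Tom+ library 24 of its 26 UMIs came from 1 cell. Ifit1, an antiviral RNA-binding protein, showed 7.62, 11.2, 4.30, 2.53, 0 and 1.63 CPM in Tom+ and 59.1, 51.5 and 25.6 CPM in Tom-GFP+ members (3.28 ± 0.40 SE). Bst2 (tetherin) showed 114, 70.4, 98.9, 88.5, 184 and 121 CPM in Tom+ and 398, 515 and 269 CPM in Tom-GFP+ members (1.83 ± 0.27 SE). Ifi27l2a showed 769, 639.8, 204, 111, 447 and 438 CPM in Tom+ and 2973, 1621 and 1443 CPM in Tom-GFP+ members (2.25 ± 0.32 SE). Again no Tom+ library of either state reached the lowest Tom-GFP+ library of that state.

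Of 16 interferon-stimulated genes tested 7 were higher in Tom-GFP+ and none lower, beside 0.547% of all genes, and 15 of 16 had a positive difference with a median of 1.23 against 0.0029 over all genes. The count fell to 2 of 15 without the steady Tom-GFP+ library, to 2 of 15 without the first injured Tom-GFP+ library and to 1 of 13 among members with 2 or more Dpp4 UMIs, with medians of 1.02, 0.83 and 1.46. Ifi203, Oas1a, Phf11d, Rnf213, Sp100, Trim25 and Xaf1 were among the other genes higher in Tom-GFP+, were noticed after their values were seen, and include genes with close copies, as do Oasl2 and Ifi27l2a. The Cd34+ Dpp4- cells of the same libraries gave Isg15 at 15.7, 11.4, 14.4, 34.8, 15.1 and 45.5 CPM in Tom+ and 97.7, 70.4 and 83.2 CPM in Tom-GFP+ libraries, so that all 3 Tom-GFP+ values again lay above all 6 Tom+ values, without a test of it in those cells. The summed leukocyte markers of the members, 15.2, 4.80, 5.73, 12.6, 47.3 and 44.1 CPM in Tom+ and 7.17, 11.5 and 34.1 CPM in Tom-GFP+ libraries, overlapped between lineages.

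**Figure D4:**
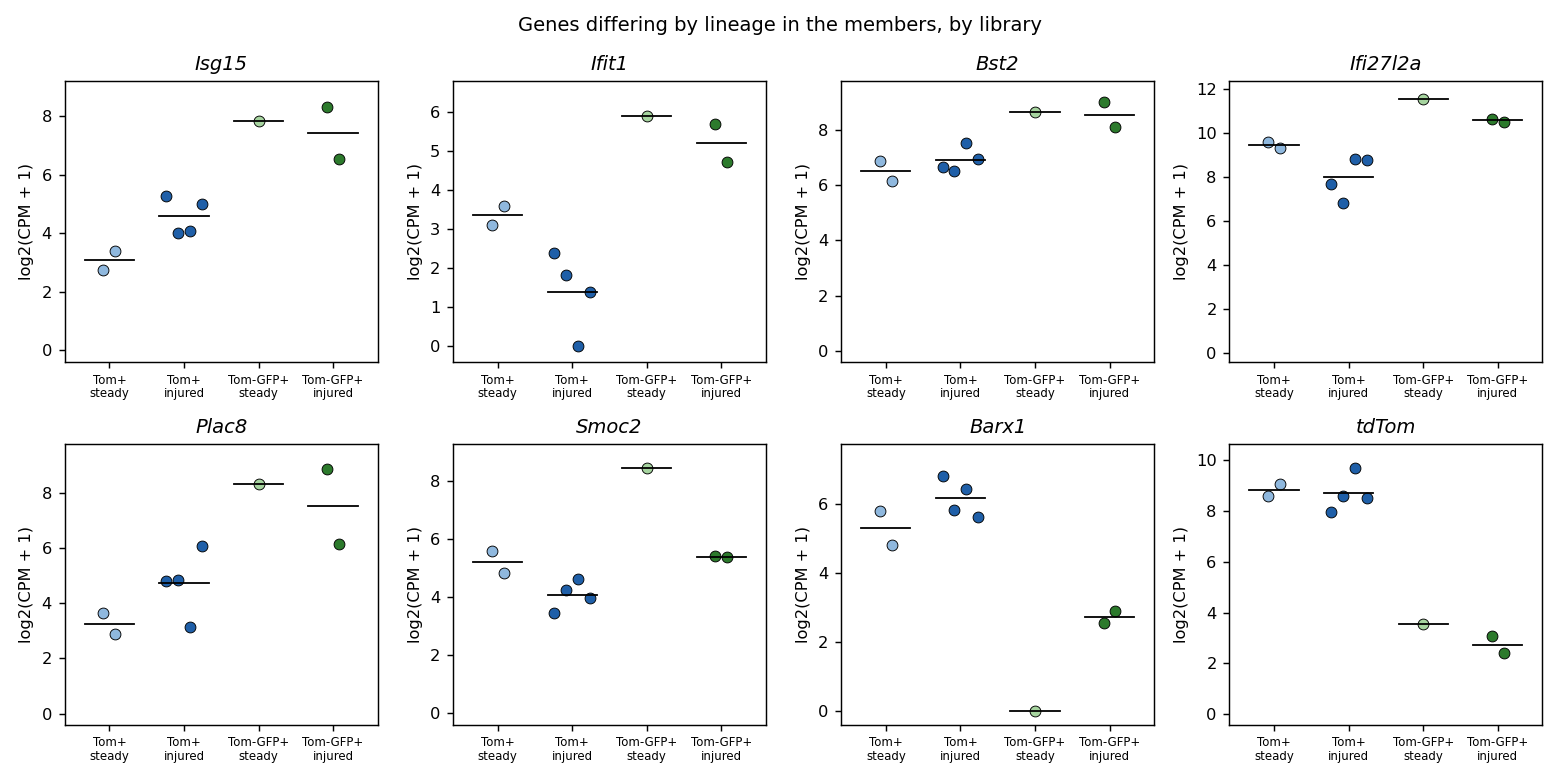
Level of 8 genes in the summed members, as log2(CPM + 1), 1 point per library with group means as lines. Isg15, Ifit1, Bst2, Ifi27l2a, Plac8 and Smoc2 lie higher in the Tom-GFP+ libraries (green) of the same state, and Barx1 and the lineage reporter tdTom lie lower.

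The promoters of these genes are shown because interferon-stimulated genes are switched on through a short DNA element bound by the factors STAT and IRF. The element was searched as GAAA, any 2 bases and GAAA (TTTC, any 2 bases and TTTC on the other strand), with overlapping matches allowed, in windows from 250 bases before to 50 bases after each start site of RefSeq genes (GRCm38.p6). It was found in 3.44% of 32851 windows, in 223 of the 5614 tested genes with a window (3.97%), in 6 of the 29 genes with a window among the 40 called higher in Tom-GFP+ (20.7%; Ifi27l2a, Zbp1, Rtp4 and Iigp1 were among those not searched), in none of the 5 with a window called lower and in 9 of 15 interferon-stimulated genes of the list. The 150 bases before the start site, 5′ to 3′ on the gene's own strand with the matches in capitals, were as follows for Isg15 (chr4:156200819-156200968, minus strand), Bst2 (chr8:71537473-71537622, minus strand), Ifit1 (chr19:34640739-34640888, plus strand) and Oas1a (chr5:120907526-120907675, minus strand).
Isg15: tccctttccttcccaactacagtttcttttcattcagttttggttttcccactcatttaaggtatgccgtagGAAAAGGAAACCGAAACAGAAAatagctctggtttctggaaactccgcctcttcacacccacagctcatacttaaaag
Bst2: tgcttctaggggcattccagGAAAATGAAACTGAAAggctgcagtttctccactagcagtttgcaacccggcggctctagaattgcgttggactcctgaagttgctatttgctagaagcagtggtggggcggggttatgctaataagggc
Ifit1: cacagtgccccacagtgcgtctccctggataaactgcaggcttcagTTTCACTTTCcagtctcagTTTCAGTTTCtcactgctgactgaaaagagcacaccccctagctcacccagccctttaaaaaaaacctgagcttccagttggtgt
Oas1a: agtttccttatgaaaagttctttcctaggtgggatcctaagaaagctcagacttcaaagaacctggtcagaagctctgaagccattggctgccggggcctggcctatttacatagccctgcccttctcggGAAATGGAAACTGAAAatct
Isg15 held 3 overlapping matches and the other genes 2 each, those of Ifit1 on the other strand. These 4 were chosen from the genes with matches, and Irf7, Oasl2, Phf11d, Rnf213, Sp100, Trim25 and Xaf1, also higher in Tom-GFP+, had a window without one. A match is a run of letters and not a measured binding site, and no binding was measured here.

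Other lineage differences lay outside that group. Plac8, a small cysteine-rich protein, lay at 11.4, 6.40, 27.2, 27.8, 7.89 and 66.98 CPM in Tom+ and 325, 475 and 70.4 CPM in Tom-GFP+ members (log2 difference 3.63 ± 0.58 SE, edgeR's quasi-likelihood test, Benjamini-Hochberg adjusted p = 0.0117). Smoc2, a matricellular protein, lay at 47.6, 27.2, 10.03, 17.7, 23.7 and 14.7 CPM in Tom+ and 346, 41.7 and 40.5 CPM in Tom-GFP+ members (2.28 ± 0.35 SE) and also fell after injury (-2.24 ± 0.35 SE). Without the steady Tom-GFP+ library the adjusted p of Plac8 was 0.144 and that of Smoc2 0.306 (edgeR's quasi-likelihood test). Vegfd, a lymphatic growth factor, differed by 2.37, Dmkn by 3.53, Ms4a4d by 2.34, Gngt2 by 2.28, Gas7 by 2.03, and the interferon-inducible Zbp1 and Rtp4 by 1.96 and 1.76. Of the Dmkn UMIs 8 of 10 in the steady and 22 of 24 in the second injured Tom-GFP+ library came from 1 cell each. Sfrp2, a Wnt antagonist, was called (3.16 ± 0.60 SE) on values of 105, 54.4, 73.1, 35.4, 103 and 172 CPM in Tom+ and 382, 2085 and 159.9 CPM in Tom-GFP+ libraries, which overlapped, with 1 library far above the others, and without that library its adjusted p was 0.533 (edgeR's quasi-likelihood test).

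Barx1, a homeobox gene of joint and craniofacial mesenchyme, ran the other way, at 55.2, 27.2, 112, 55.6, 86.8 and 49.01 CPM in Tom+ and 0, 4.91 and 6.40 CPM in Tom-GFP+ members (-4.23 ± 0.51 SE, edgeR's quasi-likelihood test, Benjamini-Hochberg adjusted p = 0.00229). Both states showed the gap, with no UMI in the steady Tom-GFP+ library. Smaller differences in the same direction included those of Dkk3 (-1.53), Plpp1 (-1.47), Ankrd29 (-1.38), Ecm2 (-1.18), Emp2 (-0.94), the matrix gene Aspn (-0.93) and Igfbp7 (-0.87). None of the 24 universal fibroblast genes differed between lineages by the same test, with a median difference of 0.06, and Pi16 differed by -0.12 ± 0.39 SE. Of the other lists, Col5a3 (1 of 17 collagens), Ccl11 (1 of 17 chemokines and cytokines), C2 (1 of 13 complement genes) and Il1rl2 (1 of 11 receptors) were higher in Tom-GFP+. None of these 4 remained called when each library was left out in turn.

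Whether the injury response of the members differed between lineages was tested by an interaction term, with the lone steady Tom-GFP+ library assumed to vary like the others. None of 8242 genes was called by edgeR (0%), 207 had an unadjusted p below 0.05, and DESeq2 called 2. The steady Tom-GFP+ group has no replicate of its own, so the spread behind this test comes from the other groups.

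The response was then set against that of the Cd34+ Dpp4- cells of the same libraries, with the library as a block. Of 10632 genes tested 19 had a different injury response (0.179%), 18 of them with the more positive change in the members, while 954 had an unadjusted p below 0.05. For Cthrc1 the difference of the 2 responses was 0.21 ± 0.27 SE on the log2 scale and for Col1a1 0.27 ± 0.17 SE, neither of them called. In the Cd34+ Dpp4- cells Cthrc1 stood at 37.5, 28.5 and 29.4 CPM in steady and 4119.7, 2561, 2932, 1595, 2906 and 1064 CPM in injured libraries. For Pi16 it was 0.85 ± 0.46 SE, also not called, with 622, 615 and 878 CPM in steady and 12.4, 155, 110.1, 286, 328 and 376 CPM in injured Cd34+ Dpp4- cells.

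Several of the genes that did differ were ones that the Cd34+ Dpp4- cells held more of in steady state. Gdf10, a member of the TGF-beta family, lay at 7.62, 7.997 and 17.9 CPM in steady and 10.03, 7.59, 5.26, 34.3, 41.7 and 19.2 CPM in injured members. The Cd34+ Dpp4- cells had 59.4, 71.5 and 278 CPM and then 5.36, 21.7, 8.94, 23.5, 88.4 and 27.9 CPM, so that their mean dropped while that of the members did not, and the difference of the responses was 3.15 ± 0.43 SE (edgeR's quasi-likelihood test, Benjamini-Hochberg adjusted p = 0.0022). Cpe, a peptide-processing enzyme, went from 15.2, 4.80 and 2.69 CPM in steady to 11.5, 37.9, 73.6, 37.6, 21.3 and 21.3 CPM in injured members, and from 55.9, 104 and 42.3 to 19.9, 62.8, 95.96, 41.3, 37.6 and 39.03 CPM in the other cells (2.75 ± 0.40 SE). Tspan11, a tetraspanin, went from 1.90, 0 and 10.8 to 60.2, 40.5, 23.7, 32.7, 68.7 and 31.98 CPM in members and from 33.4, 57.9 and 75.6 to 33.9, 45.3, 52.3, 68.95, 85.7 and 72.9 CPM in the others (3.09 ± 0.57 SE). In both genes the members lay far below the other cells of their own library in steady state. After injury the gap was smaller, but the members were still the lower class in 6 of 6 libraries for Cpe and in 5 of 6 for Tspan11. The proteoglycan Lum, lower in the members of all 3 steady libraries and of 3 of 6 injured ones, went from 882, 662 and 821 to 3080.0, 2696, 2847, 3299, 2152 and 1514 CPM in members and from 1811, 1584 and 1661 to 2365, 2650.3, 4318, 3318, 1961 and 2330.0 CPM in the others (1.02 ± 0.19 SE).

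**Figure D5:**
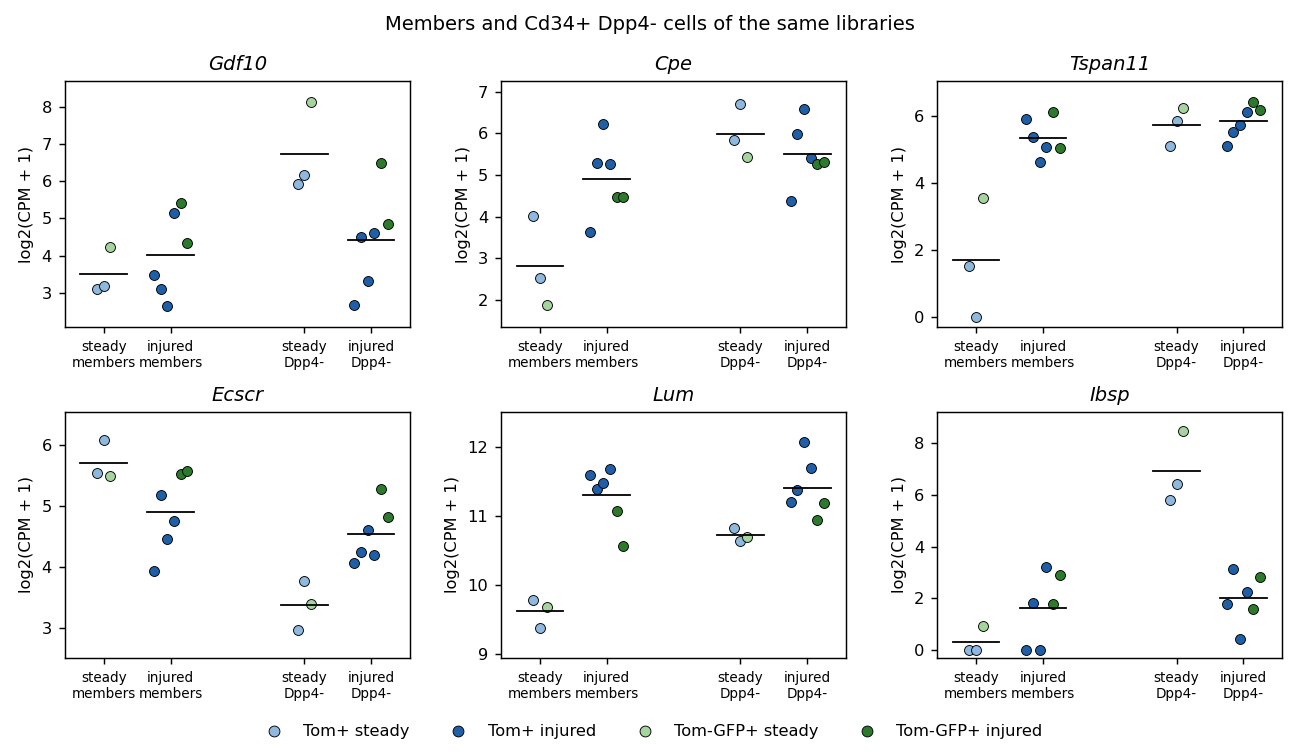
Level of 6 genes, as log2(CPM + 1), in the members (left 2 columns of each panel) and in the Cd34+ Dpp4- cells of the same libraries (right 2 columns), 1 point per library with means as lines. Tspan11, Cpe and Lum rise towards the level of the Cd34+ Dpp4- cells, the means of Gdf10 and Ibsp drop after injury in those cells and not in the members (where Ibsp is near 0), and Ecscr is closer between the cell classes after injury.

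Ecscr, a cell-surface gene first known from endothelium, was the 1 gene that ran the other way. It lay at 45.7, 67.2 and 43.9 CPM in steady and 14.3, 35.4, 21.03, 26.1, 44.99 and 46.9 CPM in injured members, and went from 6.82, 12.7 and 9.60 to 15.9, 18.01, 23.4, 17.4, 38.1 and 27.4 CPM in the Cd34+ Dpp4- cells (-1.99 ± 0.28 SE, edgeR's quasi-likelihood test, Benjamini-Hochberg adjusted p = 0.00361). Ibsp, a bone matrix gene, was mostly a gene of the steady Cd34+ Dpp4- cells, with 55.3, 85.1 and 356 CPM in steady and 2.41, 7.79, 0.344, 3.79, 2.05 and 6.04 CPM in injured Cd34+ Dpp4- cells, while no member sum exceeded 8.17 CPM. Cysltr1, a leukotriene receptor, was near the lower limit of what these sums can show (from 7.62, 22.4 and 4.48 to 17.2, 2.53, 5.26, 22.9, 0 and 0 CPM in members). Its mean in the members did not rise (11.5 CPM in steady and 7.98 CPM in injured libraries). The difference of the responses, 3.66 ± 0.68 SE, thus cannot be read as a rise in the members. Msmp rests on few cells, as all 705 of its UMIs in the fourth injured Tom+ library came from 1 member, and without that library its adjusted p was 0.996 (edgeR's quasi-likelihood test). Of these 7 genes Ibsp alone remained called when each library was left out in turn, but the members held 1 Ibsp UMI over the 3 steady libraries and at most 5 in an injured one. Its difference thus rests on the drop in the Cd34+ Dpp4- cells beside member counts near 0 and its size cannot be read as a change in the members. With the matrix format as a block it was 3.39 with an adjusted p of 1 (edgeR's quasi-likelihood test). Without the steady Tom-GFP+ library 4 genes in all were called, and the adjusted p of Gdf10 was 0.121. The follistatin gene Fst, an inhibitor of activins, was the other of the 19 that remained called in each leave-one-out run.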

How the data were processed

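Single-cell RNA was captured with a 10x Genomics 5′ kit in 9 libraries of sorted knee cells. The authors deposited raw UMI counts per gene and barcode, made with Cell Ranger on GRCm38.p6 (software version 3.0.2 in the header of 5 matrices, not given in the sources used here for the other 4), with barcodes already called as cells (333 to 865 per library, 2866464 to 15033902 UMIs). The members and gene lists were chosen with earlier results of these data known, so neither is independent of them.

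Barcodes were kept from 500 genes and 1000 UMIs upwards, with a mitochondrial share no higher than 10%. Doublets were scored with Scrublet (scanpy 1.11.5) but not removed in the values given. Counts of members were summed per library and tested with edgeR 4.0.16 (quasi-likelihood, TMM, filterByExpr with a minimum count of 10) in R 4.3.3, with state and lineage as terms. Genes of the selection rule and mitochondrial genes were left out. The interaction was a separate term, and the contrast with Cd34+ Dpp4- cells had the library as a block. Benjamini-Hochberg adjusted p-values under 0.05, over all genes tested, were called. Shares were compared by 2-sided exact permutation of library means, within lineage or state (scipy 1.17.1). Fold changes are log2 with standard errors. Genes were named as the 12 largest log2 changes per direction (6 for the response contrast) among called genes with at least 50 CPM in the higher group and, for injury and lineage, no overlap within lineage or state, together with members of 35 gene lists. Symbols such as Gm, Rik, Rpl and Rps were not named, and some genes that met the rule or belong to the lists are not reported here. Pseudogenes were taken from GENCODE vM21, which matched 54495 of 54532 gene IDs. The statistics were tested on simulated data. DESeq2 1.42.0, RLE scaling, other cell filters, thinning, leaving out each library and the matrix format as a block were alternatives. The libraries were labelled as replicates, and since Tom+ and Tom-GFP+ cells came from shared mice that the labels do not match, the lineage comparison was unpaired.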

Additional observations from a re-analysis of the deposited data

Results flagged for a closer look

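Among the 4 injured Tom+ libraries, 12 of 55 quantities examined (gene levels chosen by the naming rule and 2 shares of members) had a library whose distance from the others passed Dixon's 95% critical value. Chance alone gives about 1 in 20 for values without ties, and the genes are not independent of each other. In Cxcl13, Krtdap and Msmp the other 3 libraries were at 0, which fixes the ratio at 1, so that rate does not apply to them. In the first of these libraries, which has the older matrix format, Lrrc15 (195 CPM), Ftl1-ps1 (178 CPM), Krtdap (4.30 CPM), H3f3a-ps2 (35.8 CPM), Tpt1-ps3 (87.4 CPM), Oaz1-ps (272 CPM), Slurp1 (84.6 CPM) and Dmkn (17.2 CPM) stood above the other 3. Ftl1-ps1 and the 3 annotated pseudogenes among them (H3f3a-ps2, Tpt1-ps3 and Oaz1-ps) are close copies whose values are uncertain. Penk (44.7 CPM) stood out in the third library. Cxcl13 (3.27 CPM), Gdf10 (34.3 CPM) and Msmp (1152 CPM) stood out in the fourth, Msmp from 1 cell. Of the Slurp1 UMIs in the first library 49 of 59 came from 1 cell. What set these libraries apart was not tested.

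The injury response of the members differed from that of the Cd34+ Dpp4- cells, by a test of the difference itself, for Msmp (11.39 on the log2 scale), Ibsp (8.59), Cysltr1 (3.66), Gdf10 (3.15), Tspan11 (3.09), Cpe (2.75) and Ecscr (-1.99). These are the 7 genes that the naming rule took from the 19 called. The mean of Cysltr1 in the members did not rise after injury (11.5 CPM in steady and 7.98 CPM in injured libraries). The value of Ibsp rests on the drop in the Cd34+ Dpp4- cells, as the members held 1 UMI of it over the 3 steady libraries. That of Msmp rests on 1 cell of the fourth injured Tom+ library, and leaving out 1 library took it as low as 3.27. Of the 7 genes, Ibsp alone remained called when each library was left out in turn.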

How the results depend on the processing

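Directions of genes called in the main fit held widely and counts did not. The alternatives reuse the same libraries or a part of them, so a kept direction in such genes is weak evidence. Over 3628 alternatives for single genes, 2907 kept the direction and the call, 720 kept the direction and lost the call, and 1 changed sign, the response difference of Dlk1 with the matrix format as a block (-0.71). The 1063 genes changed by injury became 374 among members with 2 or more Dpp4 UMIs, 1779 with no filter on low counts, 454 with the format as a block, 455 in Tom+ libraries only, 209 in Tom-GFP+ libraries only and 533 in members thinned to 5000 UMIs. Leaving out each library gave 420 to 1170, the fewest without the steady Tom-GFP+ library (635 and 579 without the first and the second steady Tom+ library). The 51 genes differing by lineage became 6 with 2 or more Dpp4 UMIs, 314 with no filter, 8 in injured libraries only, and 8 to 73 leaving out each library (8 without the steady Tom-GFP+ library, 9 without the first injured Tom-GFP+ one, 20 and 17 without the first and second steady Tom+ ones, 24 and 30 without the second and the fourth injured Tom+ ones). The interaction gave 0 genes in each leave-one-out run that could be fitted, 2 by DESeq2 and 32 with no filter, and it could not be fitted without the steady Tom-GFP+ library. The 19 response differences became 39 with 2 or more Dpp4 UMIs, 29 by DESeq2, 239 with no filter, 63 with the format as a block and 4 to 61 leaving out each library (4 without the steady Tom-GFP+ library, 61 without the second injured Tom-GFP+ one, 8 and 5 without the steady Tom+ ones, 11 without the second or the fourth injured Tom+ one). With 2 or more Dpp4 UMIs the third injured Tom+ library had under 10 members and was dropped. The share ratio after injury was 0.380 (exact permutation p = 0.0667) in Tom+ libraries only and 0.380 to 0.463 leaving out each library, and the Tom-GFP+ to Tom+ ratio was 2.15 to 2.62, with p of 0.0333 to 0.0667, the smallest possible in each design. In a choice made after seeing the data, leaving out pseudogenes gave 834 injury genes, and thinning within Cd34+ cells gave a share ratio of 0.433. The labels give groups the same replicate numbers, and the deviations of same-numbered libraries from their group means correlated at r of -0.00204 to 0.129 over genes. In a group of 2 libraries these deviations mirror each other, so the check cannot show that pairing is absent. The replicate block gave 1155 injury and 72 lineage genes. The causes of these shifts were not tested. The shallowest sums, of the third and the second injured Tom+ and the second injured Tom-GFP+ libraries, held 380355, 395441 and 469066 UMIs, so that genes of a few CPM there rest on very few UMIs.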
